A study of Danio rerio with 6 samples.

Results

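The genes described are 10 Notch receptors and ligands of the zebrafish (Danio rerio), chosen by symbol: the receptors notch1b, notch2 and notch3, the Delta ligands dll4, dla, dlc and dld, and the Jagged ligands jag1a, jag1b and jag2b. All 10 were found in both deposited tables, among 32105 genes with FPKM (fragments scaled to gene length and to library size) and 33737 genes in the authors' comparison table. RNA was sequenced from regenerating adult hearts in 2 groups of 3 samples. The WT group is labelled wild type, and the DN-MAML group carries Tg(hsp70l:DN-MAML), a transgene for a dominant-negative Mastermind under the heat shock promoter hsp70l. Fish of both groups were of the TU-AB strain and 6 to 12 months old. They had part of the heart amputated, were heat shocked at 38 C for 1 h each day, and were sampled 5 days after amputation. The hsp70l promoter answers to heat in many cell types, so the transgene is not limited to the endocardium, which the study's title names. The labels give the same amputation and heat shock for both groups, and do not state how many fish or hearts make up a sample.

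Notch receptors are membrane proteins that are cut when a Delta or Jagged protein on a neighbouring cell binds them. The freed intracellular part enters the nucleus and joins Rbpj and Mastermind to switch on targets such as the Hairy/Enhancer of split genes. A truncated Mastermind takes the place of the full protein in that complex and blocks it, so it acts downstream of the receptors and ligands described here. In the vertebrate heart and vessels, Notch1 and Dll4 are known from endocardium and arterial endothelium, and Notch3 from smooth muscle and pericytes. In the zebrafish embryo, dla, dlc and dld are known from the nervous system and the segmenting mesoderm.

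The first principal component was taken over genes averaging at least 0.5 FPKM, and holds 36.8% of the variance. On it WT replicate 1 had -1.3 and lay between WT replicates 2 and 3 (-33.8 and -25.8) and the DN-MAML samples (10.1 to 28.1). For the members tested, limma changes that move by over 1.5 times without WT replicate 1 are given with and without it. Neither table lists the transgene, so it could not be used to check the labels. The Notch target her6 had 35.53 to 39.01 FPKM in WT and 16.8 to 21.44 in DN-MAML. Not all targets went this way: of 8 tested, 5 were on the lower and 3 on the higher side. The target nrarpb had 2.4 to 2.71 FPKM in WT and 2.76 to 3.29 in DN-MAML. Its more abundant paralog nrarpa was on the lower side, with 15.05 to 19.4 FPKM in WT and 11.94 to 16.19 in DN-MAML, and its groups overlap. The summed level of the 10 cardiomyocyte markers in the FPKM table was 45315 to 54280 FPKM in WT and 39155 to 48181 in DN-MAML. Of these markers 9 were on the lower and 1 on the higher side in DN-MAML (median log2 change -0.13). In limma 0 passed over all genes and 3 had an unadjusted p under 0.05, where all genes gave 13.2%. The authors' deposited table calls 1 lower, where 2.27% of all its genes are called lower. The summed levels of the leukocyte markers were higher in every DN-MAML sample than in any WT sample, and those of the erythrocyte, smooth muscle and thrombocyte markers lower. Such sums follow their most abundant genes, and 18.8% of single genes tested also have groups that do not overlap. On the lower side were 9 of 9 erythrocyte markers tested, but 6 of 9 smooth muscle (notch3 included) and 1 of 3 thrombocyte markers. In such bulk samples, fewer cells of a type and less RNA per cell cannot be told apart.

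The receptor notch1b was the most abundant of the 10 genes in both groups, and none of the receptors passed the test between the groups. The level of notch1b was 30.67, 24.73 and 29.31 FPKM in WT replicates 1, 2 and 3. In the DN-MAML replicates it was 24.92, 23.62 and 32.18. The groups overlap, and the highest and the lowest samples are both DN-MAML. The log2 change was -0.08 (limma, SE 0.14, adjusted p = 0.851), with a 95% interval of -0.41 to 0.26, or 0.754-fold to 1.19-fold. Without WT replicate 1 the change of notch1b was -0.01 (limma, adjusted p = 0.969).

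The receptor notch2 had 13.59, 10.82 and 11.84 FPKM in the WT replicates and 14.29, 12.39 and 13.66 in the DN-MAML replicates. WT replicate 1 lies within the DN-MAML range, and the other WT samples lie below it. The log2 change of notch2 was 0.15 (limma, SE 0.11, adjusted p = 0.593), with a 95% interval of -0.11 to 0.42. It was 0.24 (limma, adjusted p = 0.330) without WT replicate 1 and 0.08 (0.845) without WT replicate 2. For notch3, the WT replicates had 6.23, 4.75 and 4.71 FPKM and the DN-MAML replicates 4.90, 3.88 and 4.88. WT replicate 1 was the highest sample, and the other WT samples lie inside the DN-MAML range. The log2 change of notch3 was -0.18 (limma, SE 0.15, adjusted p = 0.629), and ranged from -0.24 to -0.06 with 1 sample left out, nearest 0 without WT replicate 1 (-0.06, adjusted p = 0.864). Leaving out DN-MAML replicate 2 gave -0.08 (adjusted p = 0.863). The smooth muscle and pericyte markers (10 in the FPKM table, notch3 among them) had a summed level of 385 to 473 FPKM in WT and 246 to 303 in DN-MAML. That sum follows acta2 and tagln (means of 139 and 250 FPKM in WT). Of the 9 markers tested 6, notch3 included, were on the lower and 3 on the higher side. The part of these cells in the notch3 values was not tested. The 3 receptors summed to 45.6 ± 5.10 FPKM in WT samples and to 44.9 ± 5.46 in DN-MAML samples (SD, n = 3).

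**Figure D1:**
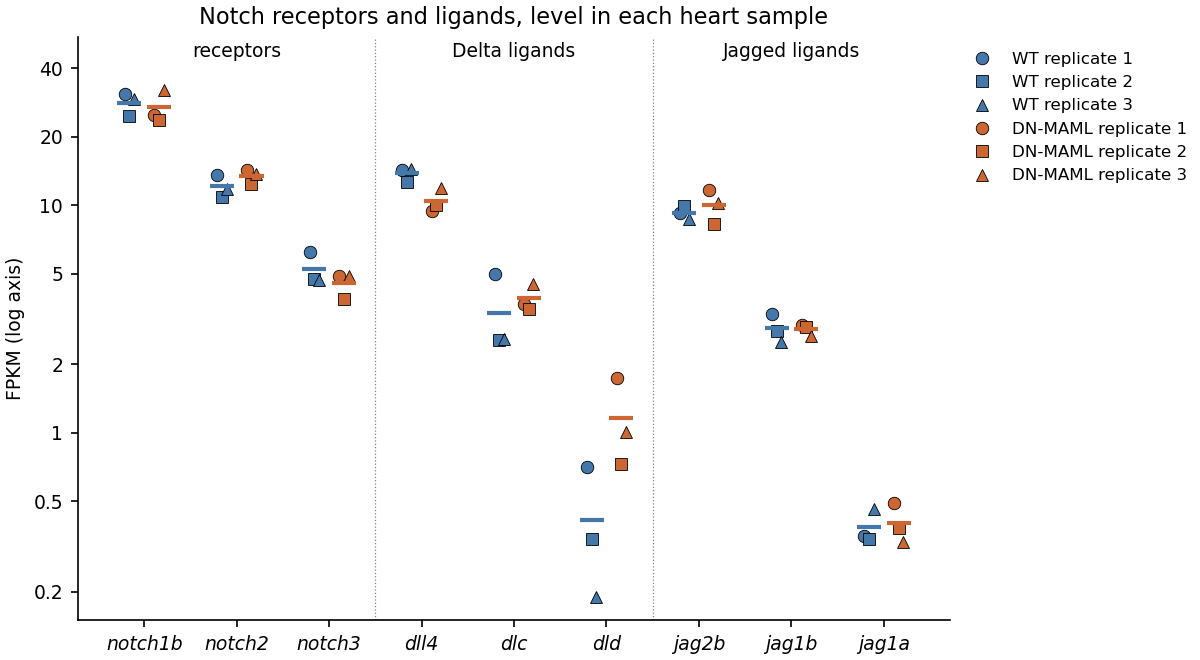
FPKM (log axis) of 9 receptors and ligands in each of the 6 samples, WT in blue and DN-MAML in orange, with a bar at each group's mean and a symbol for each replicate number. dla, at 0 or 0.01 FPKM in every sample, is not drawn. The groups are apart for dll4 and, by 0.02 FPKM, for dld, and overlap for the other 7 genes drawn.

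The endothelial ligand dll4 was the most abundant ligand in WT hearts and lower in every DN-MAML sample than in any WT sample. It had 14.28, 12.65 and 14.45 FPKM in the WT replicates. The DN-MAML replicates had 9.47, 10.02 and 11.86. The gap between the groups was 0.79 FPKM, and the ratio of the group means was 0.758. The log2 change was -0.39 (limma, SE 0.12, 95% interval -0.66 to -0.12), which did not pass over all genes (adjusted p = 0.251; unadjusted p = 0.0103). Without WT replicate 1 it was -0.36 (limma, adjusted p = 0.223). The authors' deposited table has dll4 lower and past 0.05, with a log2 change of -0.42 (SE 0.12) and an adjusted p of 0.0260.

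The Delta gene dld was present at low level, at 0.71, 0.34 and 0.19 FPKM in the WT replicates and 1.74, 0.73 and 1.01 in the DN-MAML replicates. The groups do not overlap, but WT replicate 1 and DN-MAML replicate 2 differ by only 0.02 FPKM. The mean went from 0.413 ± 0.268 to 1.16 ± 0.521 (SD, n = 3), a ratio of 2.81. The log2 change, made smaller by the 0.5 added to the FPKM, was 0.86 (limma, SE 0.29, 95% interval 0.19 to 1.52), and did not pass over all genes (adjusted p = 0.291; unadjusted p = 0.0184). With 0.1 added it was 1.35 (adjusted p = 0.293), and without WT replicate 1 it was 1.08 (adjusted p = 0.122). The authors' deposited table gives dld a log2 change of 1.30 (SE 0.39) and an adjusted p of 0.0240, so there it is higher and past 0.05. With a WT mean under the minimum of 0.5 FPKM, dld entered the test only through its level in DN-MAML.

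The counts behind these genes can be gauged from the authors' mean normalized count, spread over the samples in proportion to the FPKM. For dll4 that mean is 2236 in the authors' deposited table, and the samples come to about 1747 to 2666. For dld the mean is 146, and the samples come to about 132, 63.1 and 35.2 in the WT replicates and 323, 135 and 187 in the DN-MAML replicates. The gap between the dld groups is then about 3.71 counts, where the counting error (Poisson SD) of the highest WT sample alone is about 11.5. These counts are approximate, since the authors' count scaling and the FPKM scaling need not be the same.

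The other Delta genes did not separate the groups. The gene dlc had 4.98, 2.55 and 2.59 FPKM in the WT replicates and 3.67, 3.48 and 4.52 in the DN-MAML replicates. WT replicate 1 was the highest of all 6 samples and the other WT samples the lowest, and the log2 change was 0.23 (limma, SE 0.24, adjusted p = 0.708). Its size moved with each WT library left out, to 0.51 (adjusted p = 0.147) without replicate 1, 0.09 (0.932) without replicate 2 and 0.10 (0.939) without replicate 3, and to 0.13 (0.925) without DN-MAML replicate 3. The gene dla was listed at 0 in WT replicate 1 and in DN-MAML replicates 2 and 3, and at 0.01 FPKM in the other 3 samples. Its mean normalized count in the authors' deposited table is 1.19, with no adjusted p, and it was not tested here.

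Of the Jagged ligands, jag2b was the most abundant and none differed between the groups beyond its spread. It had 9.22, 9.91 and 8.69 FPKM in the WT replicates and 11.64, 8.27 and 10.26 in the DN-MAML replicates. DN-MAML samples were both the highest and the lowest, and the log2 change was 0.10 (limma, SE 0.14, 95% interval -0.21 to 0.41, adjusted p = 0.780). For jag1b the WT replicates had 3.32, 2.81 and 2.51 FPKM and the DN-MAML replicates 2.96, 2.91 and 2.66. All DN-MAML samples lie inside the WT range, and the log2 change was -0.0099 (limma, SE 0.13, 95% interval -0.31 to 0.29, adjusted p = 0.982). Without WT replicate 1 the change of jag1b was 0.08 (limma, adjusted p = 0.788). Its paralog jag1a had 0.35, 0.34 and 0.46 FPKM in WT and 0.49, 0.38 and 0.33 in DN-MAML, under the minimum for the test. The authors' deposited table gives jag1a a log2 change of -0.0074 (adjusted p = 0.992) from a mean normalized count of 132.

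**Figure D2:**
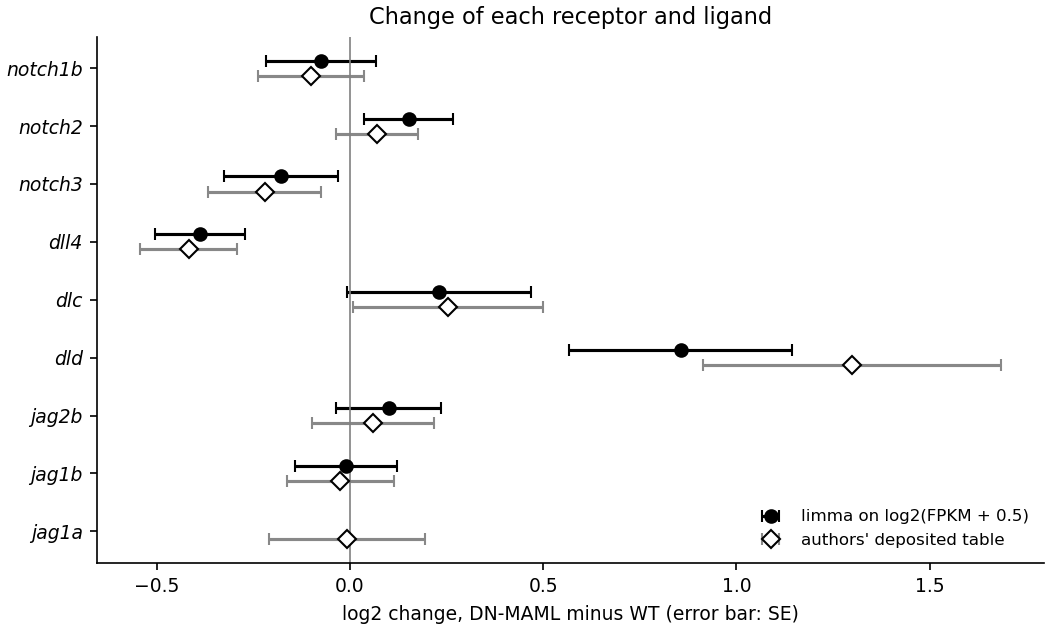
Log2 change of DN-MAML against WT for 9 genes, with limma on log2(FPKM + 0.5) as filled circles and the authors' deposited table as open diamonds, and SE as error bars. dll4 lies at about -0.4 in both, and dld at 0.86 in limma and 1.30 in the authors' deposited table; jag1a was not tested in limma.

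Of the 8 members tested, 0 passed limma's test over all genes, where 16 of 16556 genes passed (0.0966%). At an unadjusted p under 0.05 there were 2 of 8, dll4 and dld, where all genes gave 13.2%. The same 2 have groups that do not overlap, where all genes gave 18.8%, with 8.98% lower and 9.83% higher in DN-MAML. As dld entered the test only through its DN-MAML level, it adds nothing to these counts, and dll4 is 1 of the 7 other members tested. The authors' deposited table has dll4 lower and dld higher among 9 members with an adjusted p, where 4.38% of its genes pass (2.27% lower, 2.11% higher). The median log2 change of the 8 members was 0.05, beside 0.03 for all genes tested. That median counts dld, so its sign cannot be read as a trait of the members. The members' own changes ranged in both directions, 4 on the higher side, dld included, and 4 on the lower side.

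By level, FPKM allow the genes to be ordered within a group. In WT hearts the order was notch1b, dll4, notch2, jag2b, notch3, dlc, jag1b, dld, jag1a and dla. Neighbours whose ranges over the samples overlap are dll4 and notch2, notch3 and dlc, dlc and jag1b, and dld and jag1a. In DN-MAML hearts notch2 came before dll4, and the other genes kept their places. There the ranges of dll4 (9.47 to 11.86 FPKM) and notch2 (12.39 to 14.29) no longer overlap, while dll4 and jag2b do, as do notch3 and dlc. In DN-MAML dld (0.73 to 1.74) stood apart from jag1a (0.33 to 0.49). By mean FPKM, notch1b lies above 86.1% of all genes tested, dll4 above 71.8%, and dld above 7.22%.

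The ratios of dll4 to notch1b and to jag2b, in which a scaling factor shared by a sample cancels, were lower in every DN-MAML sample. The ratio of the dll4 level to the notch1b level was 0.466, 0.512 and 0.493 in the WT replicates and 0.380, 0.424 and 0.369 in the DN-MAML replicates. The WT values lie close together and all above the DN-MAML values (mean 0.490 ± 0.0231 and 0.391 ± 0.0294; SD, n = 3). The exact two-sided permutation test gave p = 0.1, the smallest it can give with 3 against 3 samples. Taken over notch1b, 2.72% of all genes were likewise lower in every DN-MAML sample. The ratio of dll4 to jag2b was 1.55, 1.28 and 1.66 in WT and 0.814, 1.21 and 1.16 in DN-MAML, where 7.38% of all genes were lower in every DN-MAML sample by the same measure. Both ratios were chosen after seeing the data and reuse the dll4 levels given above.

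The endothelial and endocardial markers were, as a list, not lower beside dll4. Of the 24 symbols on that list 20 were in the FPKM table and tested. In DN-MAML 15 of these were on the higher and 5 on the lower side, with a median log2 change of 0.10. Those on the lower side were kdr, flt1, tek, erg and nfatc1. None of the 20 passed limma's test over all genes, and 1 had an unadjusted p under 0.05, where all genes gave 13.2%. That gene was plvapb, on the higher side (log2 change 0.49, limma, adjusted p = 0.210). Of 23 such markers 0 are called in the authors' deposited table. Their summed level was 352 to 410 FPKM in WT and 382 to 480 in DN-MAML, and none was at 0 in all samples. The part of endothelial and endocardial cells in the dll4 values was not tested. The log2 level of dll4 relative to the mean log2 level of these markers was 0.13, 0.02 and 0.0033 in the WT replicates. In the DN-MAML replicates it was -0.52, -0.40 and -0.49. The difference was -0.52, against SDs of 0.07 in WT and 0.06 in DN-MAML (exact permutation test, p = 0.1, n = 3). By this measure 15.6% of all genes were lower in every DN-MAML sample. The mean log2 level of the markers was itself 0.13 higher in DN-MAML (exact permutation test, p = 0.4). Its groups overlap, at 3.70 to 3.90 in WT and 3.80 to 4.12 in DN-MAML. On the same scale notch1b differed by -0.21, and its groups do not overlap (0.96 to 1.20 in WT, 0.80 to 0.91 in DN-MAML). Without WT replicate 1 that difference was -0.13. On this scale dld does overlap, with WT replicate 1 at -3.48 and DN-MAML replicates 2 and 3 at -3.50 and -3.52 (difference 0.72, exact permutation test, p = 0.3).

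**Figure D3:**
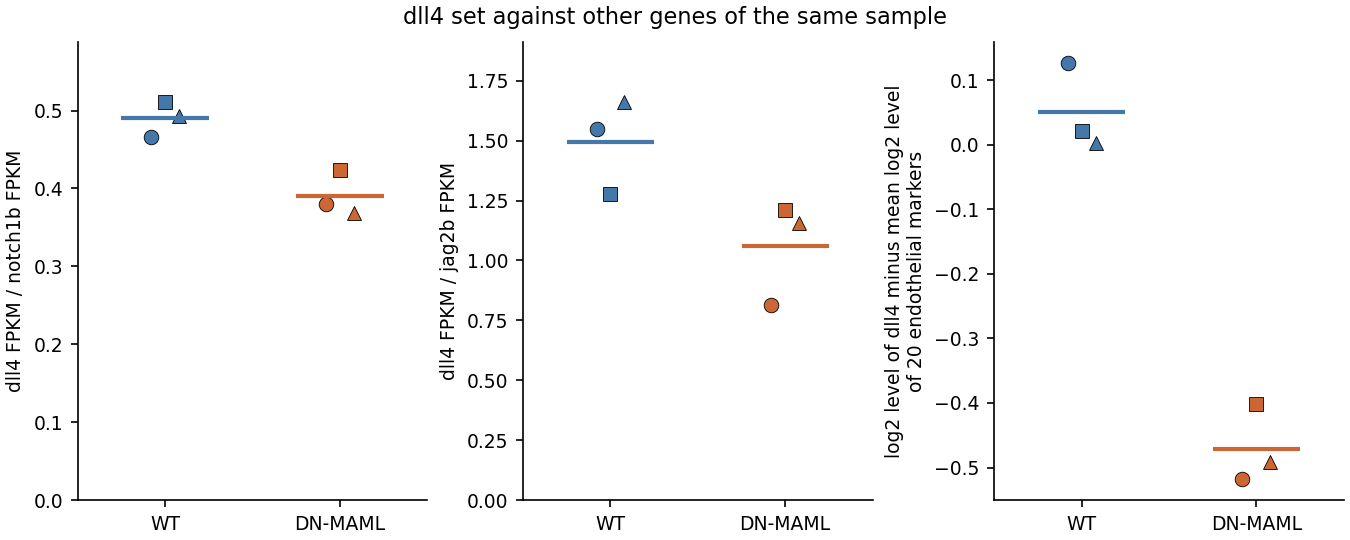
The level of dll4 in each sample as a ratio to notch1b (left), as a ratio to jag2b (middle), and as a log2 difference from the mean of 20 endothelial markers (right), with bars at the group means and symbols for replicate numbers 1 (circle), 2 (square) and 3 (triangle). In each panel the 3 DN-MAML samples lie below the 3 WT samples, with 0.424 against 0.466 as the nearest samples for notch1b and 1.21 against 1.28 for jag2b.

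Of the summed level of the 7 ligands described, dll4 took a smaller and dld a larger share in every DN-MAML sample. That sum leaves out jag2a (mean 1.16 FPKM in WT and 1.21 in DN-MAML). The receptor sum leaves out notch1a, which has no FPKM. The 7 ligands together had 30.1 ± 2.37 FPKM in WT samples and 28.8 ± 2.63 in DN-MAML samples (SD, n = 3), a difference within the spread (exact two-sided permutation test, p = 0.6). Of that sum dll4 made up 43.5%, 44.2% and 50.0% in the WT replicates and 31.6%, 38.9% and 38.7% in the DN-MAML replicates. The share of dld was 2.16%, 1.19% and 0.657% in WT and 5.80%, 2.83% and 3.30% in DN-MAML. The shares of dll4 and dld do not overlap between the groups, while those of dlc, jag1a, jag1b and jag2b do. Taken over the same ligand sum, 3.76% of all other genes were lower and 17.9% higher in every DN-MAML sample. Those genes are not part of the sum, as dll4 and dld are, so the percentages are not a like reference. The shares restate the dll4 and dld levels given above, and a lower dll4 by itself raises the shares of the other ligands. Among the receptors the share of notch2 was 26.5% ± 0.616 in WT samples and 30.1% ± 2.85 in DN-MAML samples (SD, n = 3). Its groups are apart by the narrowest of margins, 26.92% in WT replicate 1 and 26.93% in DN-MAML replicate 3. Over the receptor sum, of which notch2 is a part, 13.6% of the genes outside it were higher in every DN-MAML sample. The ratio of ligand sum to receptor sum was 0.664 ± 0.0414 and 0.643 ± 0.0379.

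Beside dld, the leukocyte and epicardial markers were on the higher side in DN-MAML. Of 11 symbols on the leukocyte list 7 were in the FPKM table, and all 7 were on the higher side (median log2 change 0.37), of which 0 passed limma's test over all genes and 3 had an unadjusted p under 0.05. Their summed level was 129 to 177 FPKM in WT and 181 to 210 in DN-MAML. All 7 epicardial markers tested were on the higher side as well (median log2 change 0.28), 0 passed limma's test, and 1 had an unadjusted p under 0.05. Their summed level was 427 to 677 FPKM in WT and 647 to 696 in DN-MAML. The authors' deposited table calls 1 marker of each of these lists higher, where 2.11% of all its genes are called higher. Of all genes tested in limma, 13.2% had an unadjusted p under 0.05. Of the neuron and Schwann cell markers, 8 were in the FPKM table, with a summed level of 1.27 to 1.75 FPKM in WT and 1.39 to 2.45 in DN-MAML. Only 1 of these 8 reached the minimum for the test. It was on the higher side (log2 change 0.26) and did not pass limma's test. The pan-neuronal gene elavl3 was at or near 0. The part of these cells in the dld values was not tested.

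Among all named genes tested, the pattern of dll4 over the 6 samples was most like those of lpcat1 (Pearson r = 0.99) and cnrip1a (r = 0.98), and that of dld most like those of ighv1-4 and id2b (r = 0.996 and 0.99). For notch1b they were ELAVL1 and fxr1, for notch2 lta4h and gba, and for notch3 EXOC6B and gsna. For dlc they were ZNF408 and rev3l, for jag1b HSBP1 and lrrn1, and for jag2b mon1a and ppan. These are descriptions over 6 points picked as the highest of 12655 candidates. Between 57 and 652 candidates had an r over 0.9 with a member.

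The other Notch receptors and ligands on the pathway lists were low, or absent from the FPKM table. Of notch1a, the paralog of notch1b, 3 identifiers stand in the authors' deposited table, with mean normalized counts of 1216, 272 and 43.4 and adjusted p of 0.840, 0.974 and 0.980. None of the 3 is in the FPKM table. The ligand gene jag2a, named JAG2 (1 of 3) by the authors, had 1.29, 0.85 and 1.33 FPKM in WT and 1.27, 1.35 and 1.02 in DN-MAML (limma, adjusted p = 0.916). The gene dlb was listed at 0 in the 3 WT samples and at 0.01 to 0.02 FPKM in DN-MAML, from a mean normalized count of 1.48. How the authors assigned reads shared by paralogs is not given in the sources used here, so the split between notch1a and notch1b, or jag1a and jag1b, is uncertain.

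The machinery that cuts and modifies the receptors was measured in most of its genes. Of 10 receptor processing genes tested, 8 were on the higher and 2 on the lower side (median log2 change 0.09). None passed limma's test, and adam17b alone had an unadjusted p under 0.05. The ADAM protease genes adam10a (61.2 ± 11.3 FPKM in WT; SD, n = 3) and adam10b make the extracellular cut, and aph1b and psenen belong to the gamma-secretase that makes the cut in the membrane. The protease gene adam17b had 12.50, 11.48 and 13.02 FPKM in WT and 9.42, 9.90 and 10.46 in DN-MAML. All DN-MAML samples of adam17b lie below all WT samples, with a log2 change of -0.30 (limma, adjusted p = 0.277). In the authors' deposited table adam17b is lower and past 0.05 (-0.37, adjusted p = 0.0189).

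Of 5 glycosyltransferases, which tune how receptors answer to Delta or Jagged proteins, 3 were on the higher and 2 on the lower side, and 0 passed limma's test (2 at an unadjusted p under 0.05). Of the Fringe genes, lfng stood at 50.3 ± 15.3 FPKM and rfng at 2.32 ± 0.446 in WT (SD, n = 3). The Fringe gene mfng had 4.45 to 6.65 FPKM in WT and 7.11 to 7.7 in DN-MAML (log2 change 0.41, limma, adjusted p = 0.297). The 2 genes at an unadjusted p under 0.05 were mfng and poglut1 (log2 change -0.24, limma, adjusted p = 0.349), where all genes gave 13.2%. Of 6 genes of ligand endocytosis and turnover tested, 4 were on the higher side. Of 9 genes of the nuclear complex, 8 were on the higher side (median 0.14). In both of these lists 0 genes passed limma's test and 0 had an unadjusted p under 0.05, and the authors' deposited table calls none of them. The DNA-binding partners rbpja and rbpjb had adjusted p of 0.982 and 0.636 in limma. Of 8 target genes tested, 3 were on the higher and 5 on the lower side (median -0.25), and her6 alone passed limma's test (log2 change -0.97, limma, adjusted p = 0.0377; 6 of 14 alternatives passed, with adjusted p from 0.0247 to 0.142). The target hey1 had 0.60, 0.40 and 0.47 FPKM in WT and 0.32, 0.18 and 0.28 in DN-MAML. It was under the minimum here, and the authors' deposited table has it lower and past 0.05 (-0.93, adjusted p = 0.0326). The target nrarpb went the other way and was higher in every DN-MAML sample (log2 change 0.18, limma, adjusted p = 0.550), as were 9.83% of all genes tested. Its paralog nrarpa was on the lower side, with groups that overlap (log2 change -0.28, limma, adjusted p = 0.438). Over these lists of genes other than the members, 39 were tested and 1 passed in limma, where 0.0966% of all genes passed. The authors' deposited table calls 3 of 51 of them lower (adam17b, her6 and hey1) and 0 higher. There 2.27% of all genes are called lower and 2.11% higher.

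**Figure D4:**
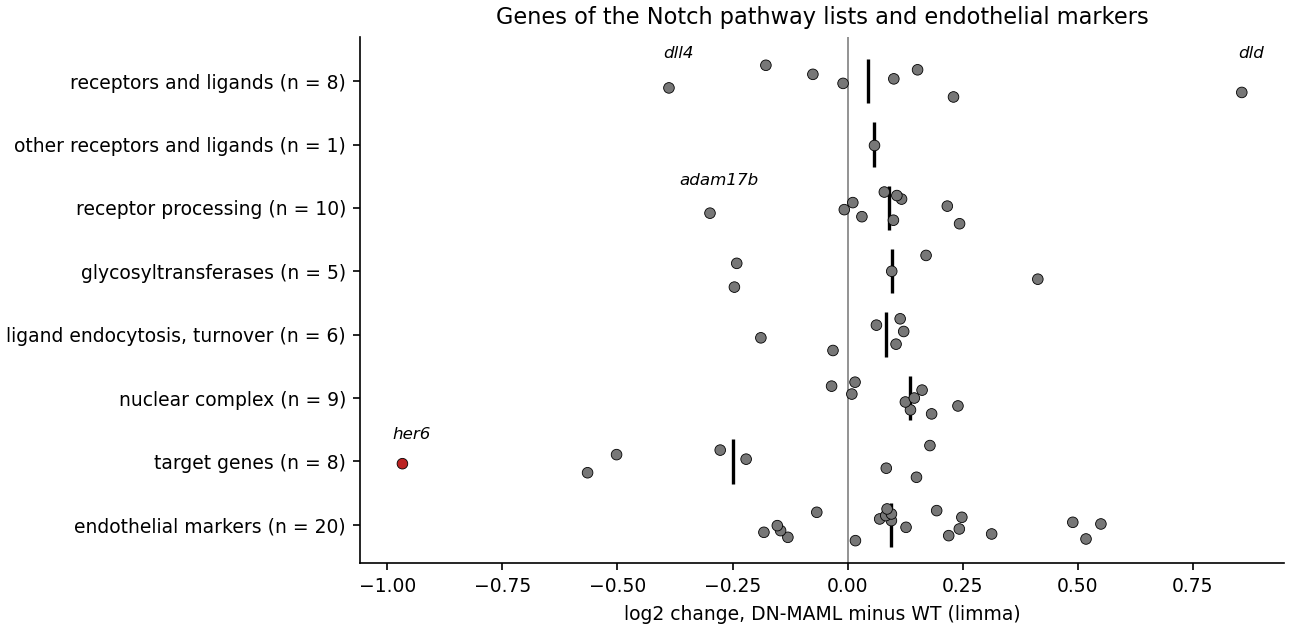
Log2 change of DN-MAML against WT for each gene tested, 1 point a gene, by list, with a line at each list's median and red for genes past limma's threshold. her6 is the 1 red point, at -0.97; dll4 (-0.39) and dld (0.86) are the members farthest from 0.

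Across 14 alternative settings (13 for dld) the members dll4, notch3, notch2, dlc and dld kept their direction, and notch1b, jag1b and jag2b, whose changes lie near 0, did not in 1 or 2 of them. None of the 8 passed limma's threshold under any of these.

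**Figure D5:**
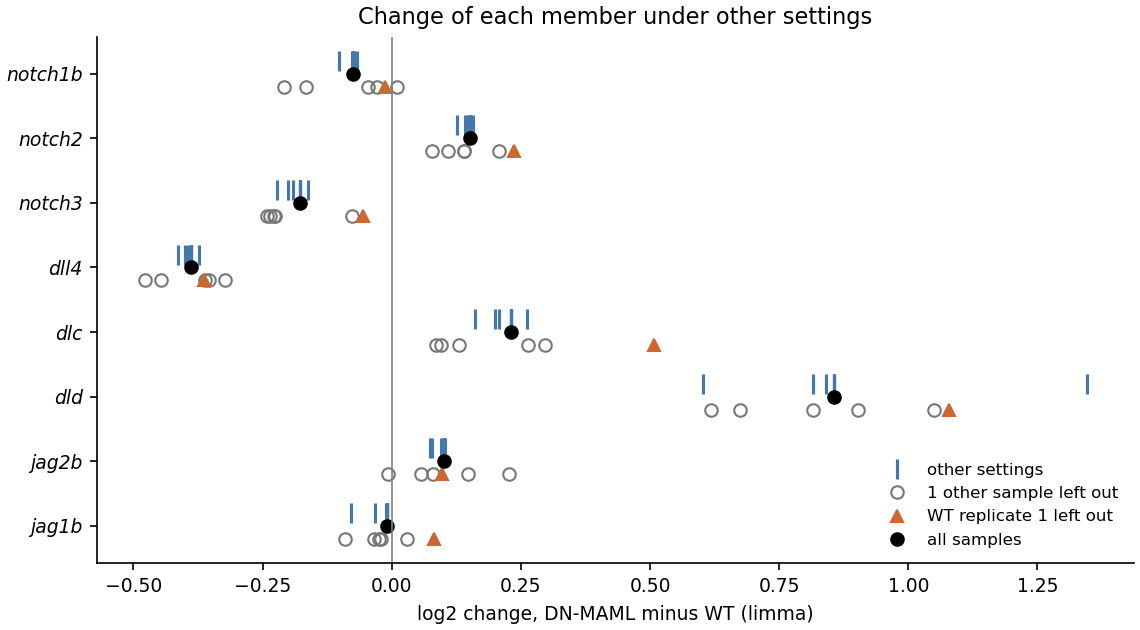
Log2 change of each of the 8 members tested with all samples (black), with WT replicate 1 left out (triangle), with another sample left out (open circles) and under the other settings (bars). dll4 stayed between -0.48 and -0.32; dlc moved most without WT replicate 1 (0.51), and dld with the amount added to the FPKM (0.60 to 1.35).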

How the data were processed

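The authors deposited FPKM for 6 samples, rounded to 0.01, and a comparison table. The submitters' processing notes name DESeq2, featureCounts, STAR, cutadapt and FastQC. The tool behind the FPKM, genome build, annotation and strand setting were not given in the sources used here. Per the file headers, the comparison table holds the authors' mean normalized count (a signal, with no value per sample), log2 fold change, its standard error, a score (change over error), p-value and adjusted p-value. Positive changes are higher in DN-MAML: 570 of 575 genes past the threshold with a mean of at least 0.5 FPKM have the same sign in the FPKM.

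Genes averaging at least 0.5 FPKM (16556) were taken as log2(FPKM + 0.5) and compared in limma 3.58.1 (R 4.3.3), with trended, robust variances and no block. Adjustment was by Benjamini-Hochberg over all genes (threshold 0.05). Steps of 1 read were not recovered from values rounded to 0.01, so the depth per sample is unknown, and total FPKM were 852778 to 914709. Whether samples are separate animals is not in the labels, so a p-value reflects only the spread among these samples, which may be technical. The fit was also run on simulated data with independent noise per gene and sample, and nothing is concluded from that run. Ratios within samples were tested with an exact permutation test (scipy 1.17.1), whose smallest p is 0.1. Members, gene lists and tests were chosen with earlier results of these data known. Named genes are all members, list genes past the threshold in limma or in the authors' deposited table, notch1a, dlb, jag2a, her6, hey1, rbpja and rbpjb, and the 2 genes most like each member. Other list genes, and their levels, are given as examples, chosen after their values were seen. Genes were matched by the authors' symbols, or else by a gene name table. No sequences were used.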

Additional observations from a re-analysis of the deposited data

How the results depend on the processing

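No member passed limma's threshold under any of 14 alternatives (13 for dld, which has no value at a minimum of 1 FPKM). The number of genes passing was 16 with all samples, 10 after quantile normalization and 0 with the replicate number as a block (2789 at an unadjusted p under 0.05), and between 4 and 180 with 1 sample left out (180 with WT replicate 1 left out, 4 with WT replicate 3 or DN-MAML replicate 2 left out, 6 with DN-MAML replicate 3 left out). Same-numbered samples correlated in their deviations at 0.21, -0.03 and 0.14. WT replicates 1 and 3 correlated best with the DN-MAML sample of the same number, and WT replicate 2 with DN-MAML replicate 3 (0.06). These weak correlations cannot decide whether the numbers pair the samples, and the labels do not say. With the block, limma's adjusted p was 0.201 for dll4 and 0.182 for dld, against 0.251 and 0.291 without it. Without the block 2189 genes had an unadjusted p under 0.05. The change of dll4 ranged from -0.48 to -0.32 (adjusted p 0.164 to 0.516), that of dld from 0.60 to 1.35 (0.122 to 0.562). Changes near 0 turned direction when 1 sample was left out: notch1b ranged from -0.21 to 0.010, jag1b from -0.090 to 0.082, jag2b from -0.0069 to 0.23, jag2a from -0.084 to 0.14 and rbpja from -0.062 to 0.066. After quantile normalization jag2a turned to -0.0036 and rbpja to -0.045, and rbpja turned to -0.014 after median-ratio scaling. Relative to the endothelial markers, notch2 (0.019) turned to -0.0082 with their median, and with 1 sample left out notch2 ranged from -0.066 to 0.12, dlc (0.097) from -0.096 to 0.39 and jag2b (-0.033) from -0.18 to 0.058. The cause of these turns was not tested. The order of the members held under median-ratio scaling, which scales all genes of a sample alike and so cannot change their order within it. DESeq2 was not run, since the values are not counts.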
